A study of Drosophila melanogaster with 2 samples.

Results

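Peaks of GFP-tagged Six4 were crowded into dense clusters at 88 places in the Drosophila melanogaster genome. A cluster peak was chosen by position alone, as a peak of the deposited reproducible set with 4 or more other summits within 10 kb to either side on the same chromosome. By that rule 339 of 3974 peaks (8.53%) were cluster peaks, and 3635 were other peaks. Joining cluster summits that lay 10 kb or less apart gave 88 loci. The positions that chose these peaks came from the measurement itself, so their number and spacing are described here and carry no test.

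Chromatin immunoprecipitation followed by sequencing was done with an antibody to green fluorescent protein (GFP) on whole transgenic embryos whose Six4 carried a C-terminal GFP tag. Embryos were 0 to 16 hours old, males and females were pooled, and chromatin was sonicated to 200 to 800 bp. Biological replicates 1 and 3 formed a single group of 2 samples, so no group was compared with another, and control libraries were not used here. The peaks are the optimal set of the irreproducible discovery rate (IDR) procedure on build dm6, the 3974 strongest of 30000 pooled entries. Each carries the authors' signal value, and the sequencing depth behind it is unknown.

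Six4 belongs to the sine oculis family of homeodomain transcription factors, which can work with Eyes absent proteins. In Drosophila embryos it is known from the mesoderm, where it takes part in forming muscle, the somatic gonad and other mesodermal tissues. Whole embryos were used, so the number of cells in which a site was bound and the occupancy per cell cannot be told apart.

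The sequences below come from the 10 loci with the most cluster peaks and are shown because those loci are the largest. Each is the 201 bp around the summit of the strongest cluster peak of its locus whose window touches no annotated exon, read 5′ to 3′ on the plus strand of the Release 6 genome. Capitals mark any of 9 motifs on either strand, which are the sine oculis core TGATAC, the replication-related element TATCGATA, the GAGA factor motif GAGAG, the homeodomain core TAATTA, the Zelda motif CAGGTAG, the M1BP motif GGTCACACT, the AP-1 site TGACTCA, the repeat CACACA and the palindromic Mef2 consensus. A window with no capitals holds none of them.
tara locus, chr3R:16222387-16222587: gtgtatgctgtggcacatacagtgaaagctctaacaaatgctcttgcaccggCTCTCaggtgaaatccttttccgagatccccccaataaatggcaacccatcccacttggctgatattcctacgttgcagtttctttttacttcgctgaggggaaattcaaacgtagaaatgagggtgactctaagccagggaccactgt
CHES-1-like locus, chrX:7706881-7707081: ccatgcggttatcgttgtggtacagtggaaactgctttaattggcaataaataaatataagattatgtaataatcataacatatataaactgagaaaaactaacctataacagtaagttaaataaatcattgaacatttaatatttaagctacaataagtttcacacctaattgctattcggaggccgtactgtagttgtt
CG14434 locus, chrX:6863251-6863451: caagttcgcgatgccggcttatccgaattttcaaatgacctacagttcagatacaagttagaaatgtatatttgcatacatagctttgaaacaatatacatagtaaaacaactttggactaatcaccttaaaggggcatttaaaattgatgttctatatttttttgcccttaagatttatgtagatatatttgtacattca
Raf locus, chrX:2297635-2297835: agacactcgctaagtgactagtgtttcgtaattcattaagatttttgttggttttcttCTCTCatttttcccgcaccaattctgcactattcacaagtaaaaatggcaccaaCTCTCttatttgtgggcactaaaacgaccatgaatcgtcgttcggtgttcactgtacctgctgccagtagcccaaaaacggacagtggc
locus near CG7560, chr3L:11418313-11418513: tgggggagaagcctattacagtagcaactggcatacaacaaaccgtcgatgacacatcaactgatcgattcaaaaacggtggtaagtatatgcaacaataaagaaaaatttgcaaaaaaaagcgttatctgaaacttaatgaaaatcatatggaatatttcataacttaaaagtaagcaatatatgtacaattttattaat
msn locus, chr3L:2584232-2584432: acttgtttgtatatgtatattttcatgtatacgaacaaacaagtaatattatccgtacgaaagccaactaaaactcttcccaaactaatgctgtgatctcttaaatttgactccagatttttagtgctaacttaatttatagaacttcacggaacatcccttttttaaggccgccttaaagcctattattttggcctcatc
ush locus, chr2L:480955-481155: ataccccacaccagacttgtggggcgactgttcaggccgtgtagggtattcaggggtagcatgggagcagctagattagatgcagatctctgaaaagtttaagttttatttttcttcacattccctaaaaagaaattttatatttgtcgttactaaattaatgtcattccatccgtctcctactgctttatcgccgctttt
Pgk locus, chr2L:2751935-2752135: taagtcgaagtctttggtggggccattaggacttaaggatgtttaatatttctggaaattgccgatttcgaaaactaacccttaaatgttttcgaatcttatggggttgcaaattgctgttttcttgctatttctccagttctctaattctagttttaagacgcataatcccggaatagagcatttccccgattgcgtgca
larp locus, chr3R:28326513-28326713: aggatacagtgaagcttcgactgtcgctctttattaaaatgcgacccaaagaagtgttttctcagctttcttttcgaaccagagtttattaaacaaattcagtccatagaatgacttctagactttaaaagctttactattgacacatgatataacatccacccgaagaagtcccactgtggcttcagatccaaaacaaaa
bantam locus, chr3L:644208-644408: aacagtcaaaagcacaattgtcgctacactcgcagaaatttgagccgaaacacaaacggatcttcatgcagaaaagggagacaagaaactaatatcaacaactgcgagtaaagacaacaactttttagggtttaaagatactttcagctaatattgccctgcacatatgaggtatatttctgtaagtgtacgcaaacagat
Of these 10 windows, those at tara and Raf held GAGAG and the other 8 held none of the marked motifs. TGATAC, a core that proteins of the sine oculis family are known to bind, stood in 1 weaker member each of the CHES-1-like, Raf and CG14434 loci, and those of CHES-1-like and Raf are printed for that reason.
CHES-1-like locus, chrX:7705641-7705841: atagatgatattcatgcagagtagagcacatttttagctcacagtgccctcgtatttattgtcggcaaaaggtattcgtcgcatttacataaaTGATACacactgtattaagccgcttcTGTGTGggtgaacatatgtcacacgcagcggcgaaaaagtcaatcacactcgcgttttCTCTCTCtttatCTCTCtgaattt
Raf locus, chrX:2301308-2301508: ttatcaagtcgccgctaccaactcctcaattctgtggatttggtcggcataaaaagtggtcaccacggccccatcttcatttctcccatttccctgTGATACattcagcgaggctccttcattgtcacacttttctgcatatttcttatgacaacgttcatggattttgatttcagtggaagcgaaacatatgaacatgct

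The cluster peaks were spread over 5 of the 6 chromosome arms. They numbered 70 of 760 peaks on 2L (9.21%), 52 of 684 on 2R (7.6%), 78 on 3L (8.85%), 77 on 3R (8.26%) and 62 on X (8.79%), with 0 of 12 on chromosome 4. The share was between 7.6% and 9.21% on the 5 long arms, and 12 peaks are too few to set chromosome 4 apart. Neighbouring cluster summits of 1 locus lay a median of 1592 bp apart, against 11375 bp between neighbouring summits of the whole set. The number of neighbours fell off steeply, with 217 cluster peaks at exactly 4, 57 at 5, 29 at 6, 18 at 7, 14 at 8, 3 at 9 and 1 at 10. Just outside the limit stood 447 peaks with 3 neighbours. The 217 cluster peaks with exactly 4 had a median signal of 134 and a promoter share of 41.0%, and the 447 peaks with 3 had a median signal of 136 and a promoter share of 42.3%. In signal and promoter share the peaks on either side of the limit were thus close.

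**Figure D1:**
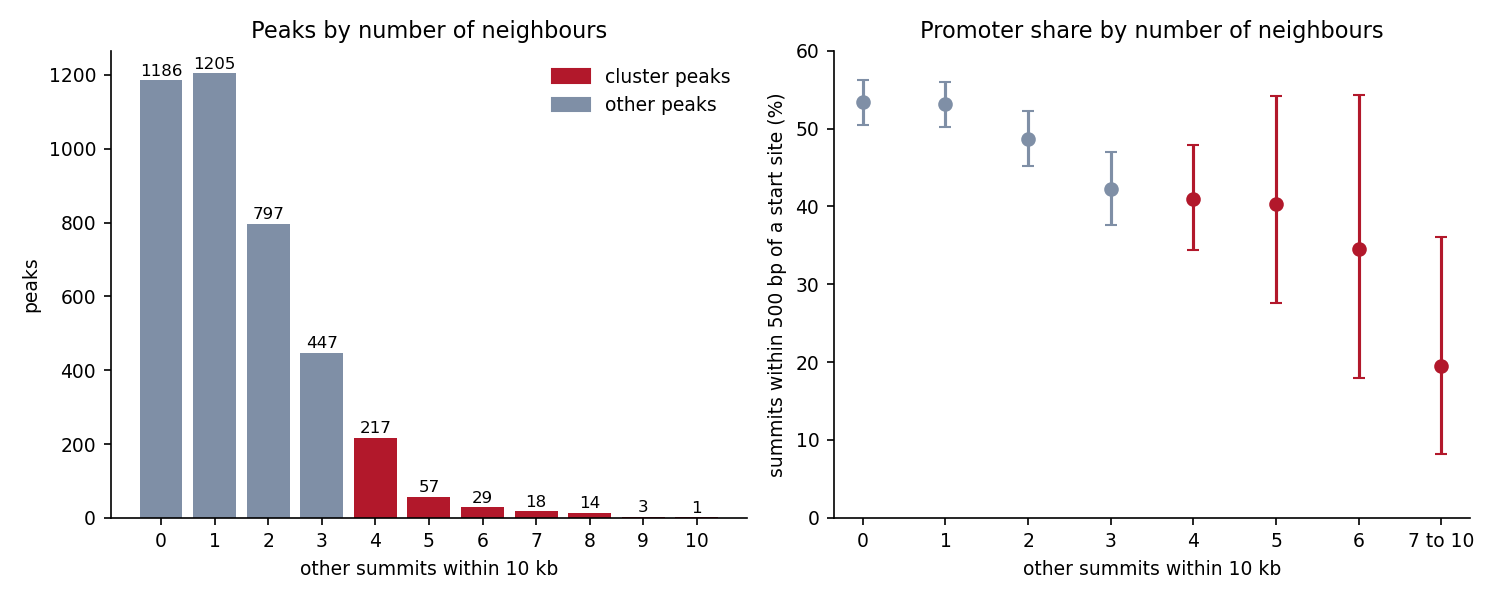
Left, number of peaks (y axis) by number of other summits within 10 kb (x axis), with cluster peaks in red and other peaks in grey. Right, promoter share in percent (y axis, a start site at 500 bp or less) by the same count, with exact 95% binomial intervals as bars; it is 41.0% at 4 neighbours and 19.4% at 7 to 10.

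Some of the crowding came from summits that almost touched. Of the 251 gaps between neighbouring cluster summits, 35 were 250 bp or shorter, 38 were under 500 bp and 75 were under 1000 bp, and the shortest was 199 bp. Another summit lay within 500 bp of 76 of 339 cluster peaks (22.4%) and of 367 of 3635 other peaks (10.1%). This contrast is set in part by the rule, because the other peaks include 1186 with no summit within 10 kb. Among peaks with 3 neighbours, just outside the limit, the share was 18.6% (83 of 447). In replicate 1, 69 cluster peaks (20.4%) had as best match an entry that was also the match of another peak, against 9.6% of other peaks. In replicate 3 this was true of 67 cluster peaks (19.8%) and of 9.66% of other peaks. A shared match needs a near neighbour, so these contrasts too are set in part by the rule. A peak was matched to the strongest entry it overlapped, so a shared match does not show that a replicate held a single entry there. At Pyroxd1 the 2 cluster peaks shared a match in each replicate, though each replicate placed 2 of its strongest entries in the span. With summits within 500 bp of a stronger one dropped, 223 cluster peaks in 64 loci met the rule.

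The loci differed much in size. Single cluster peaks, whose neighbours were not themselves cluster peaks, made up 18 loci, 12 loci held 2, 12 held 3, 7 held 4 and 25 held 5. The 14 loci with 6 or more held 108 cluster peaks. The 46 loci with 4 or more held 261 cluster peaks and spanned a median of 9566.5 bp, with a range of 3809 to 29001 bp. Within 10 kb of a cluster peak lay 191 further peaks of the set that were not cluster peaks.

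A smaller share of the cluster peaks than of the other peaks lay at promoters. A summit was counted at a promoter when an annotated transcription start site lay within 500 bp. That was so for 129 of 339 cluster peaks (38.1%, exact 95% interval 32.9 to 43.5) and for 1850 of 3635 other peaks (50.9%, 49.3 to 52.5), with 49.8% over the whole set. Of the 129, 106 lay nearest the start of a protein-coding gene and 23 nearest the start of another kind of gene. Introns held 134 cluster peaks (39.5%, 34.3 to 45.0) and 33.6% of other peaks, with 34.1% over the set. Intergenic sequence held 55 cluster peaks (16.2%, 12.5 to 20.6) and 13.5% of other peaks, with 13.8% over the set. More than 2 kb from every start site lay 109 cluster peaks (32.2%, 27.2 to 37.4) and 28.1% of other peaks, with 28.4% over the set. No cluster summit lay in coding sequence, and 0 of 339 has an exact upper limit of 1.08%. The share was 0.22% of other peaks and 0.201% over the set, so a count of 0 does not set the cluster peaks apart. Peaks of 1 locus share their surroundings and are not independent, so these intervals cover counting error only and no test was run.

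The promoter share was lower the more neighbours a peak had. It was 53.4% with 0 neighbours and 53.1% with 1, then 48.7% with 2 and 42.3% with 3. Among cluster peaks it was 41.0% with 4 neighbours, 40.4% with 5 and 34.5% with 6. Among the 36 cluster peaks with 7 or more neighbours 7 were at a promoter (19.4%, 8.19 to 36.0) and 21 were intronic (58.3%, 40.8 to 74.5). The 36 came from 6 loci, so their share describes those loci.

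Noncoding RNA genes held a larger share of the cluster peaks. Inside such a gene lay 35 cluster summits (10.3%, 7.3 to 14.1) and 160 other summits (4.4%, 3.76 to 5.12), with 4.91% over the set. Several cluster peaks of 1 locus can lie in the same noncoding RNA gene, as at bantam, so the 35 are not independent. The share was 12.9% (28 of 217) of cluster peaks with exactly 4 neighbours, against 3.13% of peaks with 3, and 0 of the 36 cluster peaks with 7 or more lay in such a gene, so it did not grow with density. Exons that code for no protein held 15 cluster summits outside promoters (4.42%, 2.5 to 7.19) and 24 other summits (0.66%). Of those 15, 4 lay in the locus of the bantam microRNA, which weighs on this share.

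**Figure D2:**
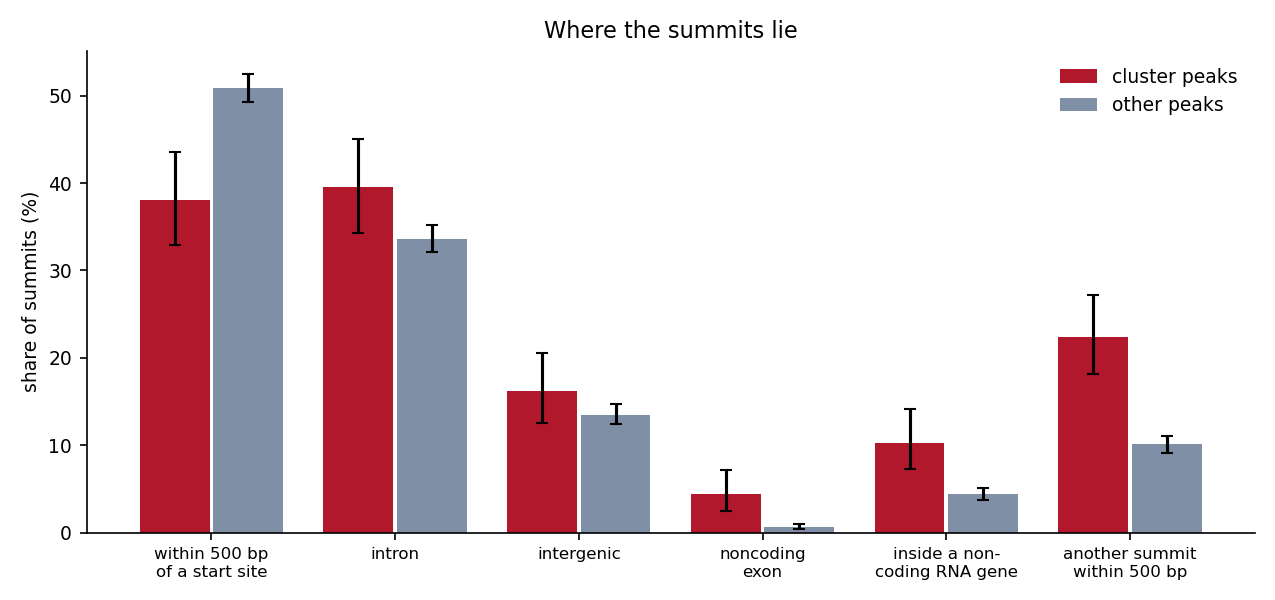
Share of summits in percent (y axis) by location (x axis), cluster peaks in red left of other peaks in grey, with exact 95% binomial intervals as bars. Cluster peaks stand at 38.1% at start sites against 50.9% for other peaks, and at 10.3% inside noncoding RNA genes against 4.4%. The contrast in summits within 500 bp is set in part by the rule that chose the cluster peaks.

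Median signals in and outside the clusters were close. The median was 135 for cluster peaks, with quartiles of 98.7 and 206, and 128 for other peaks, with quartiles of 99.0 and 187. The strongest 10% of the set held 50 cluster peaks (14.7%, 11.1 to 19.0) and 347 other peaks (9.55%, 8.61 to 10.5). Among the 100 strongest peaks 9 were cluster peaks, in 8 loci, close to their 8.53% of the set. In the 46 loci with 4 or more cluster peaks, the strongest had a median of 3.7 times the signal of the weakest, with a range of 1.32 to 14.9. Signals within a locus were thus uneven to differing degrees. Of the 46 loci, 31 held a peak of the strongest 10%. A locus of several peaks has more room for such a peak, and no expected count was worked out. The strongest cluster peak was at a promoter in 18 of the 46 loci and in an intron in 19.

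Both replicates held most of the cluster peaks. A peak was counted in a replicate when it overlapped 1 of its 3974 strongest entries, as many as the set holds. A weak summit could thus be counted through the entry of a strong neighbour. Matches shared with another peak were more common among cluster peaks, at 20.4% in replicate 1 and 19.8% in replicate 3. Among other peaks they were 9.6% and 9.66%, so the shares below are not fully alike in meaning. Both replicates had 264 of 339 cluster peaks (77.9%, 73.1 to 82.2) and 2844 of 3635 other peaks (78.2%, 76.9 to 79.6), with 78.2% over the set. Replicate 1 had 290 (85.5%) and replicate 3 had 311 (91.7%). Of the 36 with 7 or more neighbours, 34 were in both. The rule applied to each replicate's own strongest entries was met at 61 of the 88 loci in replicate 1, at 63 in replicate 3 and at 43 in both. Of the 339 cluster peaks, 192 overlapped a dense summit of replicate 1, 233 one of replicate 3, 140 both and 54 neither. Among the 46 loci with 4 or more cluster peaks, 27 were dense in both replicates. Single peaks were thus found again more often than the density itself. The replicate lists were inputs of the set, so this is no independent check.

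**Figure D3:**
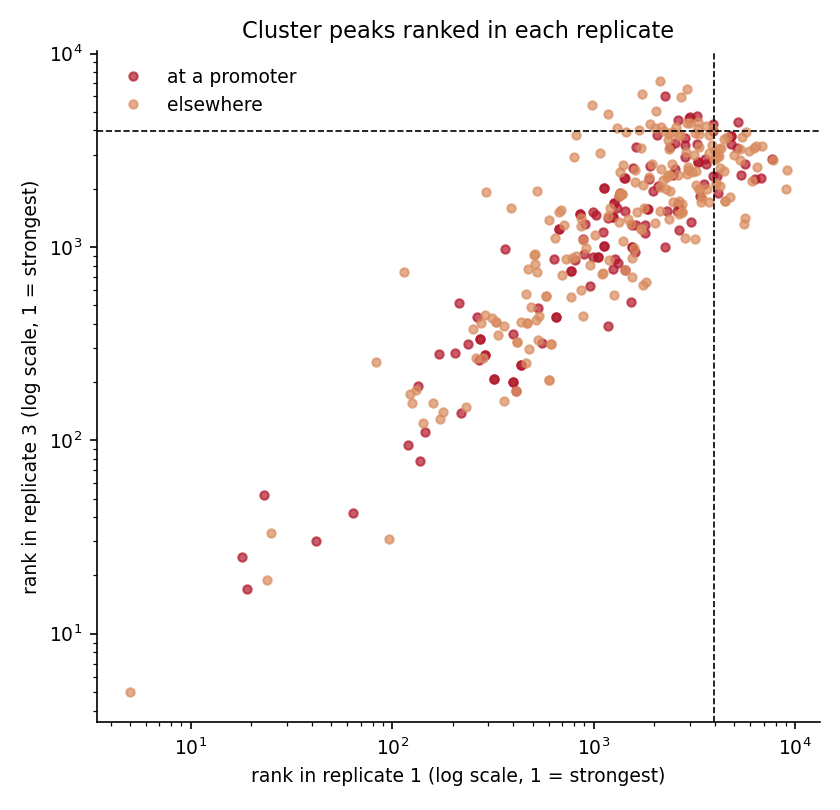
Rank of each cluster peak's best overlapping entry in replicate 1 (x axis) and replicate 3 (y axis), both on log scales with 1 the strongest, promoter peaks in dark red and the rest in orange. Dashed lines stand at rank 3974; 264 of 339 cluster peaks lie within both, and 2 without an entry in replicate 1 are not drawn.

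The loci ranged from those over 1 coding gene or none to those over several. Of the 46 loci with 4 or more cluster peaks, 25 overlapped 1 protein-coding gene or none, and 29 of their 146 cluster peaks (19.9%) were at promoters. In the 10 loci over 2 or 3 coding genes it was 23 of 53 (43.4%), and in the 11 loci over 4 or more it was 43 of 62 (69.4%). No cluster peak was at a promoter in 10 loci, all were in 3, and 33 were mixed. In 17 of the 46 loci a single gene with 2 kb to each side held every cluster peak. Over loci of any size with a summit in or near a coding gene, the median host gene was 16035.5 bp long. All protein-coding genes had a median of 2166 bp, and a long gene has more room for peaks. In the 46 loci the median host was 26951 bp long over 1 or no coding gene. It was 13559 bp over 2 or 3 and 14442 bp over 4 or more. The accounts below start with the loci of single genes, go on to those with no coding gene and end with the gene-dense ones.

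The longest locus lay at tara (taranis), which encodes a nuclear SERTA domain protein that acts with trithorax group genes. It held 11 cluster peaks over 29001 bp at chr3R:16212899-16241899. Of these, 6 lay in introns of tara, 4 in the intergenic sequence before it and 1 at the start of lncRNA:CR45642. The strongest, at summit 16222487 and 3164 bp before the nearest tara start site, had a signal of 735, the 26th of the set. Its signal was 330 in replicate 1, rank 25, and 401 in replicate 3, rank 33. Next were an intronic peak with 426 and an upstream one with 418, and the weakest had 83.4. The peak at summit 16222188, between 2 close summits, had no entry in replicate 1 and ranked 23799 in replicate 3. Both replicates held 8 of the 11 among their strongest entries.

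An equal number stood in CHES-1-like, which encodes a forkhead transcription factor. All 11 lay within the gene's 27048 bp, at chrX:7690650-7709402, and 9 were intronic. The middle of this run held the most crowded summit of the set, with 10 neighbours, a signal of 250 and ranks of 885 in replicate 1 and 441 in replicate 3. The strongest of the locus had a signal of 441, with 180 in replicate 1 (rank 172) and 261 in replicate 3 (rank 129). The peak at the gene's start had a signal of 284. Replicate 1 placed 9 of its own strongest entries in the locus and replicate 3 placed 11, and 8 of those in replicate 1 and 11 in replicate 3 were dense.

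Raf, the kinase that passes the signal from Ras to the MAP kinase cascade, held 9 cluster peaks in 10651 bp at chrX:2293680-2304330. They covered the first part of a gene of 48405 bp, 7 in introns, 1 in a 5′ UTR and 1 before it, at the promoter of CG2865. The strongest lay 2269 bp into Raf with a signal of 626, the 56th of the set. Its signal was 222 in replicate 1, rank 97, and 403 in replicate 3, rank 31. The next was 332, and the weakest, with 93.7, ranked 8968 in replicate 1 and 2004 in replicate 3. Each replicate placed 9 of its strongest entries in the locus, all of them dense by the same rule.

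The msn locus joined 3 genes of signalling and translation at chr3L:2578626-2590896. Misshapen (msn) is a Ste20 family kinase of the Jun kinase pathway, RpL8 a protein of the large ribosomal subunit and dos (daughter of sevenless) an adaptor in receptor tyrosine kinase signalling. Of 8 cluster peaks, 4 were in msn introns, 1 was 41 bp before the start of RpL8, 1 was 113 bp before that of dos and 2 lay in the dos 5′ UTR. Signals were between 83.9 and 212, and all 8 were in both replicates' strongest entries. Ranks in replicate 1 were between 672 and 3892, and in replicate 3 between 861 and 3958. The locus was thus one of many middling peaks and held none of the strongest 10%.

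The larp gene, whose product is an RNA-binding protein of the La-related family that acts on mRNA translation and stability, held 6 cluster peaks at chr3R:28326411-28336760. The strongest was 349 bp before a larp start site, with a signal of 836, the 17th of the set. It had 363 in replicate 1 (rank 19) and 475 in replicate 3 (rank 17). A second promoter peak had 220 and the other 4 were between 82.7 and 132. All 6 were in both replicates' strongest entries.

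**Figure D4:**
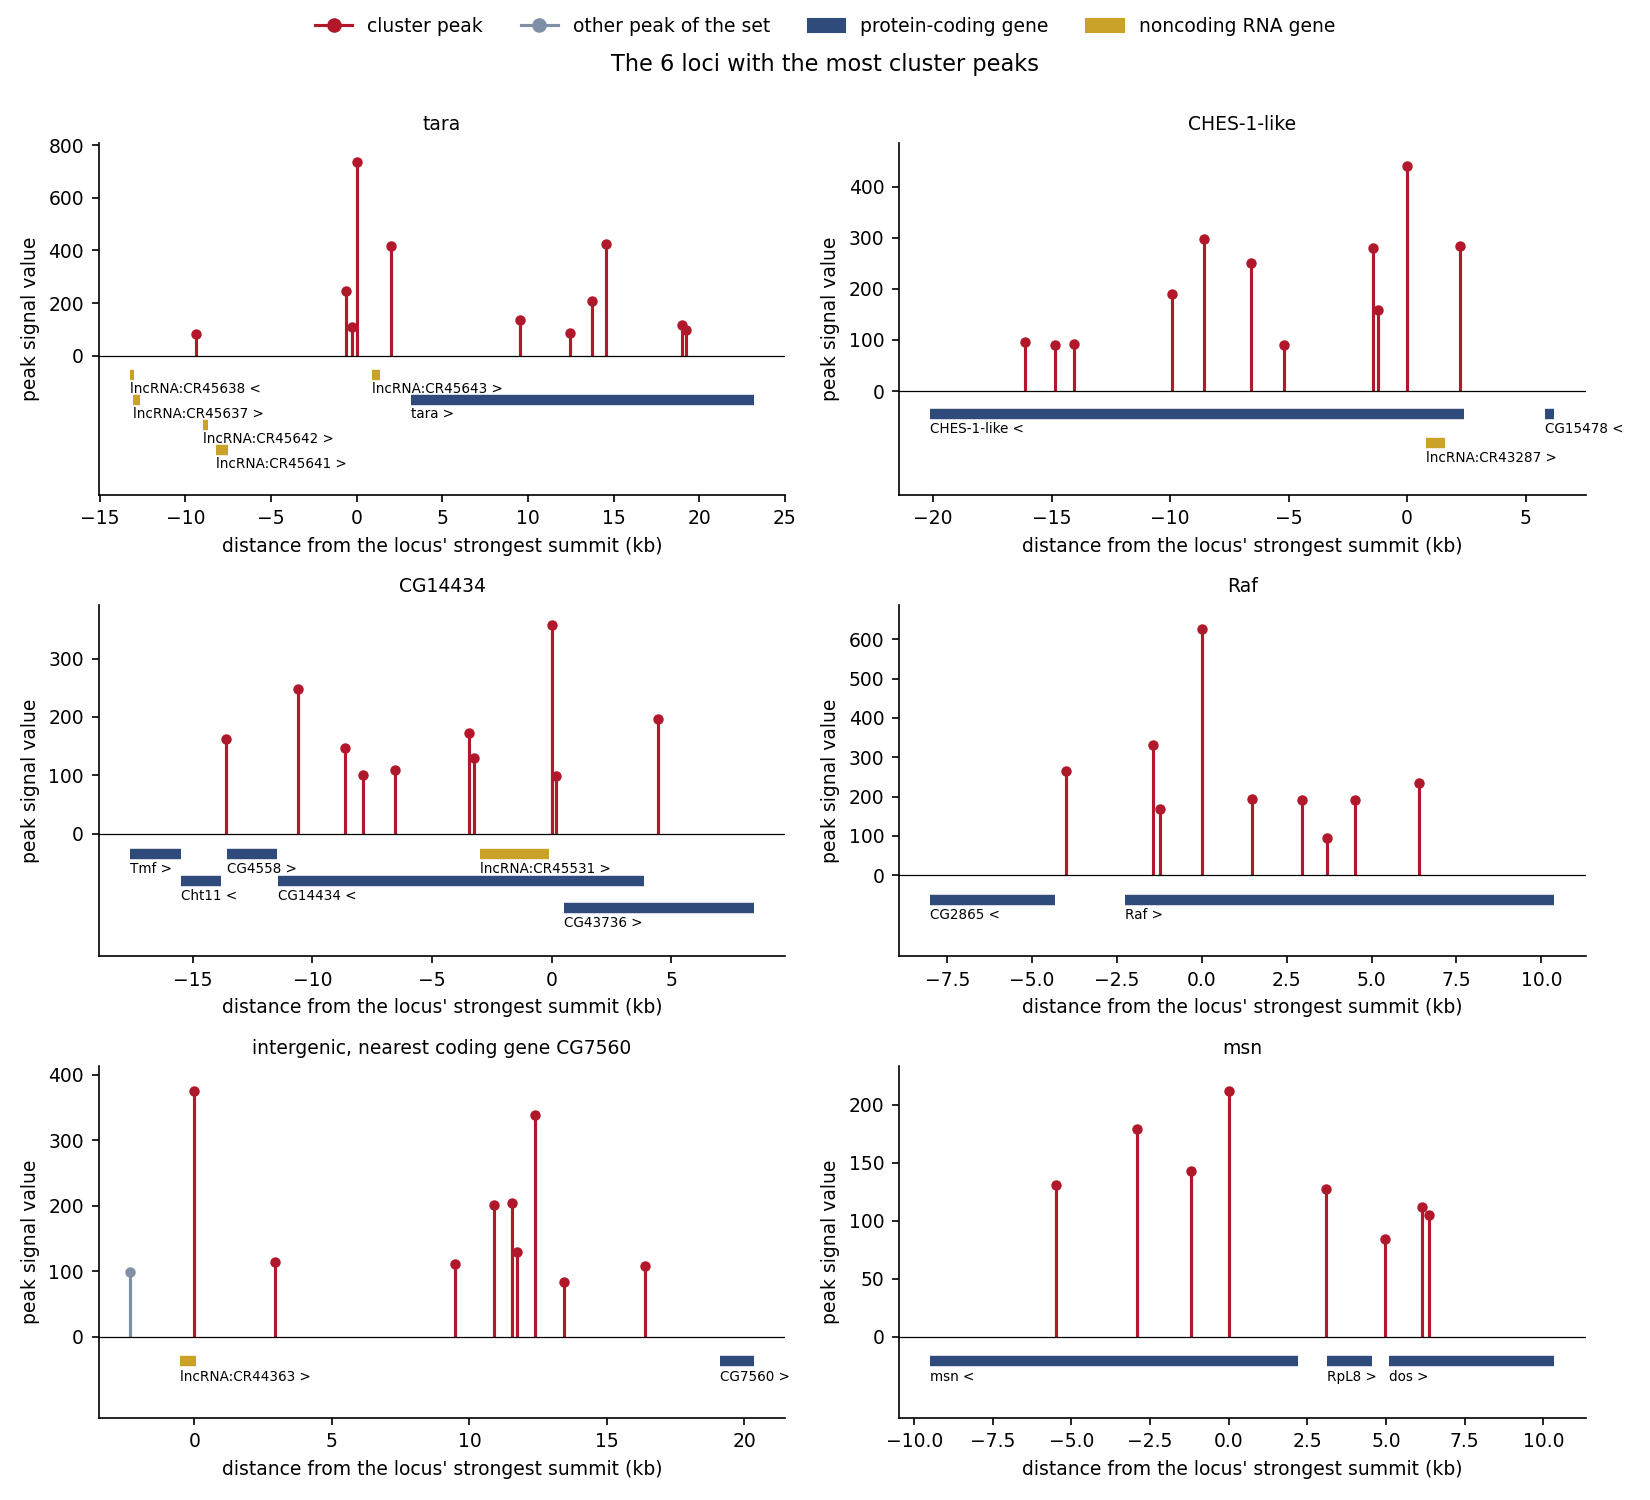
Signal value of each peak (y axis) by distance of its summit in kb from the strongest summit of the locus (x axis), for the 6 loci with the most cluster peaks, in red, with other peaks of the set in grey. Bars below are genes with their direction, protein-coding in blue and noncoding RNA in yellow; tara and CHES-1-like carry 11 cluster peaks each, CG14434 10, Raf and the locus near CG7560 9 each and msn 8.

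A locus on 3L held 9 cluster peaks and no protein-coding gene. It lay at chr3L:11405930-11422656, and the nearest coding starts were those of CG44362 on one side and CG7560 on the other. The strongest stood in the exon of lncRNA:CR44363 with a signal of 376, with 135 in replicate 1 (rank 359) and 233 in replicate 3 (rank 160). The other 8 were intergenic, between 2713 and 11444 bp from the nearest coding start, with signals of 83.1 to 338. No member was at a promoter. Each replicate placed 9 dense entries there.

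The bantam locus was the other of the 10 largest without a coding gene. Bantam is a microRNA that promotes growth and cell survival, and its hairpin (mir-ban, chr3L:642208-642288) lies in the noncoding transcript lncRNA:CR43334. The locus held 6 cluster peaks at chr3L:633642-644519, 4 of them in noncoding exons, 1 intergenic and 1 within 500 bp of an annotated RNA start close to the hairpin. The strongest had a signal of 351, with 153 in replicate 1 (rank 260) and 196 in replicate 3 (rank 265). The peak nearest the hairpin was the weakest, with 85.0, and ranked 5159 in replicate 1 and 3236 in replicate 3.

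Further loci lay mostly between coding genes. A second microRNA locus lay at mir-279 and mir-996, neighbouring microRNA genes, at chr3R:29207257-29216410. Its strongest peak, 112 bp before the start of lncRNA:CR31044, had a signal of 700 and ranked 23 in replicate 1 and 52 in replicate 3. The other 3 had 83.4 to 109, and only 1 of the 4 was in both replicates' strongest entries. Near chinmo, a BTB zinc finger gene of neuronal timing, 4 cluster peaks lay outside the coding gene, the strongest with 426. At Rh5, a rhodopsin gene, all 6 were intergenic, the strongest with 308. Near CG6163 there were 5, 3 of them intergenic.

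The strongest cluster peak of all stood in the ush locus, at chr2L:470555-485943. U-shaped (ush) is a zinc finger cofactor of GATA factors, and inside its introns lies cbt (cabut), a zinc finger transcription factor gene, with MED15, a Mediator subunit gene, and CG4297 beside it. The peak 1367 bp before the cbt start had a signal of 1310, the 5th of the set, and ranked 5 in replicate 1, with 551, and 5 in replicate 3, with 739. The one 384 bp before the cbt start had 462, and one at the CG4297 promoter had 359. The other 4 had 87.8 to 240. Both replicates had 6 of the 7 among their strongest entries.

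The CG14434 locus held 10 cluster peaks at chrX:6849509-6868028 over 4 coding genes, CG4558, Cht11, CG43736 and CG14434. Of the 10, 6 were at promoters and 4 in introns, and all 10 were in both replicates' strongest entries. The strongest, 537 bp before a CG43736 start, had a signal of 357, with 129 in replicate 1 (rank 411) and 225 in replicate 3 (rank 180). A weaker summit of 99.3 stood beside it and matched the same entry in each replicate.

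The Pgk locus was of promoters in a row. Pgk encodes the glycolytic phosphoglycerate kinase, and at chr2L:2748536-2759954 it held 7 cluster peaks with Bacc and HemK2. Of these, 5 were at promoters, 2 of Pgk, 2 of Bacc and 1 of HemK2, and 2 were intronic, 1468 and 1667 bp past a Bacc start. Signals were even, between 88.1 and 197, and all 7 were in both replicates' strongest entries. The one at HemK2 had the highest, with ranks of 895 in replicate 1 and 917 in replicate 3.

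Among the remaining loci with 6 cluster peaks, l(3)neo38 had 5 of 6 at promoters and a strongest signal of 354. All 6 were intronic at shn (schnurri), the zinc finger cofactor of Dpp signalling, with a strongest signal of 309. All 6 were also intronic at rdx (roadkill), an adaptor that marks the Hedgehog effector Ci for degradation, with a strongest signal of 314. At rdx replicate 3 placed 6 dense entries and replicate 1 placed 0, and at shn each placed 1.

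The loci with 5 cluster peaks held further strong peaks. At CG4004 a noncoding exon held one of 838, the 16th of the set, which ranked 24 in replicate 1 and 19 in replicate 3, and beside it stood one of 694. At Tina-1, a locus over 5 coding genes, the promoter peak had 805 and ranked 18 in replicate 1 and 25 in replicate 3. At Rtnl1, a reticulon gene of the endoplasmic reticulum, all 5 were at promoters, the strongest with 656. The other cluster peak among the 10 strongest, with 505, lay 295 bp before the start of CBP in a locus named for CG1677. All 5 were intronic at sbb (scribbler), a nuclear corepressor gene with a strongest signal of 443, at Kank (323), at apt (apontic), a transcription factor gene (207), at tou (151) and in a second CG1677 locus (228). The rest with 5 were named by Piezo, the mechanosensitive channel, JIL-1, a histone H3 kinase, l(2)k01209, Kdm2, a histone demethylase, edl, spi, bon, aop, CG32425, CG6191, drn, DPCoAC, CG7484, pnt and CrebA, with strongest signals between 120 and 422.

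The weakest of these stood at CrebA, a bZIP factor gene of the secretory pathway. Its 5 cluster peaks had 81.2 to 120, and 0 of the 5 were among the strongest entries of both replicates. In replicate 1 their ranks were 2032 to 6417 and in replicate 3 1717 to 5050. Neither replicate was dense there, nor at the CG6163, CG7484 and pnt loci, so the density of these 4 loci was seen in the pooled set alone.

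With 4 cluster peaks stood Ptpmeg2, a tyrosine phosphatase gene (strongest 496), beta'COP, a coat protein gene with all 4 at promoters (416), bmm (brummer), a lipase gene (309), brat, a translational repressor gene (140), and puc (puckered), the phosphatase that restrains Jun kinase (135), beside the mir-279 and chinmo loci. The loci with 2 or 3 were named by aru, Hr4, p, CG43245, CG8132, Reg-2, pum (pumilio), scramb2, rols, tup, Zdhhc8, Myc, Pyroxd1, CG3473, CheA75a, CG13917, CG10376, koko, Mnt, Hmu, CG13898, NTPase, MESK2 and Six4. Myc and Mnt, which encode opposing partners of Max, both had a locus, of 2 intergenic peaks and 1 at a noncoding RNA start near Myc and of 2 within Mnt. Single cluster peaks were named by S (Star), noc, ush, E(spl)m2-BFM, CG3788, Pdp1, Amph, DEF8, CG43245, HmgD, qtc, Nopp140, MFS10, tna, neur, CG13896, Unc-76 and ced-6. The strongest of the single ones was the intronic peak at Star, with a signal of 326.

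Six4 itself was in a small locus. Its 2 cluster peaks lay at chr3L:20789221-20793231, 1 with a signal of 102 at 243 bp before the Six4 start and 1 with 97.1 in a noncoding exon near the gene's other end. The promoter peak had 50.5 in replicate 1 (rank 2539) and 50.5 in replicate 3 (rank 3428). The other had 52.6 in replicate 1 (rank 2375) and 46.8 in replicate 3 (rank 3814). Both were thus in the weaker part of the set in each replicate, and the place was dense in replicate 1 alone.

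Genes of receptor tyrosine kinase signalling were counted most often among 21 gene lists. A listed gene was counted when a cluster summit lay in its body or within 2 kb. Over all protein-coding genes this held for 199 of 13945 (1.43%), and for 54 of 2438 whose windows were 10 to 40 kb long (2.21%). In the list of EGFR, Ras and receptor tyrosine kinases it held for 5 of 24 (20.8%), at 5 separate loci. A peak of the set of any kind was at 15 of the 24. That was so for 4352 of the 13945 coding genes and for 1151 of the 2438, so the list was rich in peaks in general. The 5 genes with cluster peaks are named next. They were Raf, with 9 cluster peaks, spi (Spitz), the main activating ligand of the receptor, with 3, and pnt (pointed) and aop (yan), the activating and repressing ETS factors at the end of the cascade, with 5 and 2. The fifth was edl, a small partner protein that keeps those ETS factors in check, with 4. The lists were chosen with earlier results of these data known, so the first place of this list is a description only. No test was run on these counts.

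The 5 genes were carried unequally by the replicates. Raf had dense entries in both replicates, 9 each. The spi and edl loci had 5 dense entries each in replicate 3 and 0 in replicate 1, and aop had 3 in replicate 3 and 1 in replicate 1. The pnt locus had 0 in either, and 2 of its 5 cluster peaks were in both replicates' strongest entries. By the strongest entries of replicate 3 alone, 4 genes of the list would have been counted, and by those of replicate 1 alone 1. The strongest peaks of these genes were themselves in both, with ranks of 436 at spi, 233 at edl, 335 at aop and 1264 at pnt in replicate 1. In replicate 3 they ranked 245 at spi, 148 at edl, 351 at aop and 566 at pnt. At edl all 5 cluster peaks of the locus were among the strongest entries of both replicates, though replicate 1 had 0 dense entries there. What set the density apart between replicates was not tested.

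Peaks at spi stood 151, 350 and 72 bp before its start sites, with signals of 330, 173 and 93.9. At edl the strongest lay 1801 bp inside the gene with 410, and 2 stood before its start with 151 and 135. At aop the stronger of 2 upstream peaks had 313, 1475 bp before the start. At pnt 4 of the 5 were in introns, more than 10 kb from a pnt start, the strongest with 217. The rest of the list had no cluster peak in their windows, among them Egfr, rho, aos, sty, Sos, Ras85D, drk, rl, csw and vn. Outside the list, dos, Star, which acts in the trafficking of the ligand Spitz, and Krn, another ligand of the receptor, had cluster peaks. These were named after their values were seen, so they add nothing to the count.

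**Figure D5:**
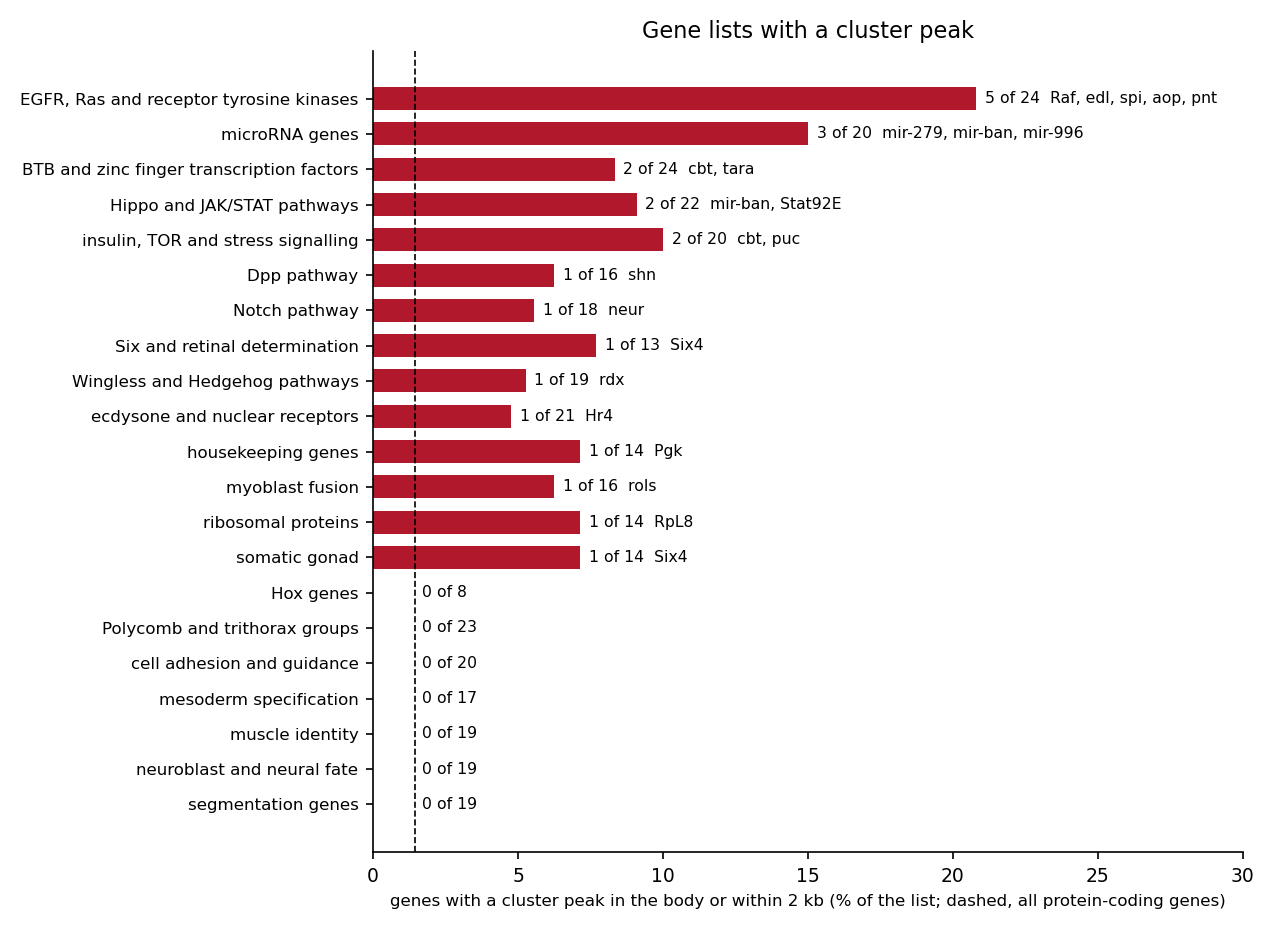
Share of each list's genes with a cluster peak in the body or within 2 kb, in percent (x axis), for 21 lists (y axis), with the count and the genes beside each bar; the dashed line is the 1.43% of all protein-coding genes. The list of EGFR, Ras and receptor tyrosine kinases stands at 5 of 24 and 7 lists at 0.

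The microRNA list followed with 3 of 20, which were mir-ban and the neighbours mir-279 and mir-996 of 1 locus. Insulin, TOR and stress signalling had 2 of 20, cbt and puc, and the BTB and zinc finger factors 2 of 24, cbt and tara. The latter list was drawn up with tara in it, though tara encodes a SERTA domain protein and is neither kind of factor. The Hippo and JAK/STAT list had 2 of 22, mir-ban and Stat92E, the pathway's transcription factor, with 2 cluster peaks up to 182 in the DPCoAC locus. Several lists had 1. They were rols, a scaffold of myoblast fusion, among 16 genes of that process, neur (neuralized) among 18 of the Notch pathway, shn among 16 of the Dpp pathway and rdx among 19 of the Wingless and Hedgehog pathways. Hr4 was the 1 of 21 nuclear receptor and ecdysone genes, RpL8 the 1 of 14 ribosomal protein genes, Pgk the 1 of 14 housekeeping genes, and Six4 the 1 of 13 retinal determination and of 14 somatic gonad genes. The cluster peak in the window of neur was nearest the start of tgo.

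Several lists, among them those of the mesoderm and muscle, had no cluster peak in their genes' windows. Mesoderm specification had 0 of 17 genes and muscle identity 0 of 19, though 9 of the 17 and 8 of the 19 had a peak of the set. The gene tup, a LIM homeodomain gene of the muscle identity list, was the nearest coding gene of a locus of 3 cluster peaks, but these lay 15706 bp or more from its start, outside the 2 kb window. The Polycomb and trithorax groups had 0 of 23, with a peak of the set at 17, and the Hox genes 0 of 8. The first of these lists left out tara, which acts with trithorax group genes and had 7 cluster peaks in its window. The 0 thus covers the 23 listed genes only. Segmentation genes had 0 of 19, neuroblast and neural fate genes 0 of 19, and adhesion and guidance genes 0 of 20. Shares of 1.43% to 2.21% give fewer than 1 gene in lists of these sizes, so a count of 0 sets none of them apart.

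Sequence around the summits differed little from that of the other peaks. TGATAC stood within 100 bp of 22 of 339 cluster summits (6.49%, 4.11 to 9.66) and of 236 of 3635 other summits (6.49%), with 6.49% over the set. Of the 22, 3 were in the DPCoAC locus beside Stat92E. The windows had a median of 34.3% GC in both groups. The homeodomain core TAATTA was at 18.9% of cluster and 18.4% of other summits (18.4% over the set), GAGAG, the motif of the GAGA factor, at 23.3% and 22.4% (22.5% over the set), the E box CANNTG at 60.2% and 58.5% (58.7% over the set), and CACACA at 15.3% and 14.4% (14.5% over the set). Rarer motifs were CAGGTAG, bound by Zelda, at 1.47% of cluster and 0.908% of other summits (0.956% over the set), the AP-1 site TGACTCA at 0.885% and 1.62% (1.56% over the set), and the palindromic Mef2 consensus at 0.59% and 0.935% (0.906% over the set). Matches were counted on both strands, and matches of different motifs can overlap.

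The 2 motifs of housekeeping promoters stood at few cluster summits. TATCGATA, the DNA replication-related element, stood at 5 of 339 cluster summits (1.47%, 0.481 to 3.41) and 130 of 3635 other summits (3.58%, 3.0 to 4.23), with 3.4% over the set. GGTCACACT, bound by M1BP, stood at 1 cluster summit (0.295%, 0.00747 to 1.63) and 52 other summits (1.43%, 1.07 to 1.87), with 1.33% over the set. For both motifs the intervals overlap. Among other summits, 125 of the 130 with TATCGATA and 51 of the 52 with GGTCACACT were at promoters. Whether the smaller promoter share of the clusters bears on these values was not tested. At promoter summits alone TATCGATA was at 5 of 129 in clusters (3.88%, 1.27 to 8.81) and 125 of 1850 elsewhere (6.76%, 5.66 to 8.0). GGTCACACT was there at 1 of 129 in clusters (0.775%, 0.0196 to 4.24) and 51 of 1850 elsewhere (2.76%, 2.06 to 3.61). Both shares stayed lower in clusters, and for both the intervals overlap. The 5 were 2 at beta'COP and 1 each at Tina-1, bmm and CG14434, and the single GGTCACACT was at bon.

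Neighbouring cluster windows were not copies of each other. Over 720 pairs of windows of 1 locus, the longest stretch that 2 of them shared was 13 bases, and 0 pairs shared 16 or more. The pooled list continued below the set with 26026 weaker entries. Of these, 282 had summits in the spans of the 88 loci, or 4.73 per 10 kb, against 1.94 per 10 kb over the arms. The loci thus held more weak entries per 10 kb than the whole arms. These entries belong to the same pooled list as the set, so they are no separate check on the density. No rate around the other peaks was worked out. The 339 cluster summits had 150 different nearest coding genes.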

How the data were processed

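The peak lists come from chromatin immunoprecipitation of GFP-tagged Six4 in 2 samples, grouped by the labels. The signal values were deposited by the authors, as peak lists per replicate, as a pooled list and as an IDR thresholded set, per the listing of files that accompanies each sample. The aligner, the peak caller, the scaling of the signal, the IDR threshold and the sequencing depth were not given in the sources used here. Signals of different lists are on different scales, so ranks were compared. The members and the gene lists were chosen with earlier results of these data known.

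A summit was a cluster summit with 4 or more others within 10 kb, and cluster summits 10000 bp or less apart were joined into a locus. A peak was in a replicate when it overlapped 1 of its 3974 strongest entries by 1 bp or more. Start sites came from the annotation of the Release 6 genome, with a promoter window of 500 bp. Genes were counted with 2 kb to each side, and motifs were searched within 100 bp of the summit. Of 390 gene list entries 386 were found, and 1 list and 1 neighbouring gene are not reported here. Every locus was named by the coding gene holding most of its members, or else the nearest; the 10 largest loci, the genes nearest the 10 strongest members and up to 4 members of each list were described. Intervals are exact binomial (Clopper-Pearson, 95%) and cover counting error only. Tools were Python 3.11.15, pandas 2.3.3, numpy 2.4.6, scipy 1.17.1, pysam 0.24.0 and matplotlib 3.10.9, and the scripts were checked on simulated data. Alternatives changed the limit, the radius, the peaks used, the windows and the replicate lists.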

Additional observations from a re-analysis of the deposited data

How the results depend on the processing

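The number of cluster peaks, 339 in 88 loci, moved with the rule. It was 786 in 216 loci with a limit of 3 others, 65 in 15 with 6, 79 in 24 with a radius of 5 kb, 1049 in 313 with 20 kb, and 34 in 9 in the stronger 50% of the set. Dropping summits within 500 bp of a stronger one left 223 cluster peaks. The authors' version of the set on build dm3, with 3717 peaks, gave 258 cluster peaks in 70 loci. The promoter share of 38.1% was 26.2% with a limit of 6 others, 31.4% without close summits, 23.6% with a 250 bp window, 49.0% with 1000 bp and 32.2% with protein-coding starts alone, an alternative chosen after seeing the data. Its difference from other peaks, -12.8 percentage points, was -24.0 with 6 others and -19.0 without close summits, and was below 0 in the 11 alternatives that gave it. With the strongest peak of each locus alone the promoter share was 43.2%, against 50.9% of other peaks, a smaller gap. The share in both replicates, 77.9%, was 99.4% with all entries of each list. TGATAC, at 6.49%, was at 3.24% within 50 bp and 13.9% within 250 bp, and TATCGATA, at 1.47%, was at 0.295% within 50 bp. With 1 replicate's list alone there were 337 to 357 cluster peaks in 87 to 91 loci, the promoter share was 36.2% to 37.3%, the difference -15.7 to -13.6, and the EGFR list, with 5 genes, had 1 to 4. That list had 1 gene with 6 others, 2 with 5 kb and 1 in the stronger 50% of the set. No paired analysis was possible because there was 1 group. The 2 samples and the unknown depth limit what weak peaks can show.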
